A study of Mus musculus with 17 samples.

Results

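The heavy-chain variable (V) segments were taken as every gene of the raw count table whose symbol begins with Ighv, which gave 183 of the 45777 genes listed. The table's annotation described 120 of them as V segments and 63 as V segment pseudogenes. Lung RNA was sequenced from male wild-type C57BL/6 mice, brought in at 6 weeks of age and kept for 1 week before irradiation, and no group carried a transgene or a deletion. The irradiated mice received 1 focal dose of 65 Gy or 75 Gy to the left lung. The sample labels name the tissue as lung, while the published methods name the lesion of the irradiated lung, so that how much unexposed tissue an irradiated library holds is not known here. The 17 libraries formed 6 groups, namely non-irradiated controls (Con), 65 Gy and 75 Gy after 2 weeks and the same after 6 weeks, with 2 libraries for 65 Gy at 6 weeks and 3 for every other group. Whether the libraries of a group came from separate mice was not given for each library, and the p-values measure the spread between libraries.

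Each heavy chain begins with a variable region that a developing B cell assembles from 1 V, 1 D and 1 J segment, so that a B cell and its descendants carry the same V segment in their heavy chain. Plasma cells, the antibody-secreting end stage of the B lineage, hold far more immunoglobulin transcript per cell than resting B cells do. In bulk lung RNA the counts on a V segment therefore sum over cells and over the RNA of each cell, and more cells with a segment cannot be told apart from more RNA per cell. The symbol of a segment names its family first, so that Ighv1-54 belongs to family Ighv1, the largest in the mouse.

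The 183 segments lay on chromosome 12 of GRCm38.p6, all on the minus strand, between 113572929 and 116009954, a span of 2437 kb with the D segments beyond its low end. The germline sequences of 5 segments are printed because they took the leading shares described in the next paragraphs, Ighv1-26 in the controls and the other 4 in single libraries. Each is a stretch of 294 bases at the 3′ end of the segment as RefSeq places it, taken from the GENCODE transcript and printed 5′ to 3′ on the minus strand. The places are chr12:115193675-115193968 for Ighv1-54, chr12:115912344-115912637 for Ighv1-80, chr12:115495625-115495918 for Ighv1-63, chr12:114788372-114788665 for Ighv1-26 and chr12:113948284-113948577 for Ighv4-1. Capitals mark bases that differ from Ighv1-54 at the same position.
Ighv1-54: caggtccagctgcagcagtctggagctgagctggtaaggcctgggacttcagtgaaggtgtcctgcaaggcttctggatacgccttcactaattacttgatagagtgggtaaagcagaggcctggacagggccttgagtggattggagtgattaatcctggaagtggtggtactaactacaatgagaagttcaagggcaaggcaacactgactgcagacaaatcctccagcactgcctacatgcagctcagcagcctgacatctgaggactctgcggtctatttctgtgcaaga
Ighv1-80: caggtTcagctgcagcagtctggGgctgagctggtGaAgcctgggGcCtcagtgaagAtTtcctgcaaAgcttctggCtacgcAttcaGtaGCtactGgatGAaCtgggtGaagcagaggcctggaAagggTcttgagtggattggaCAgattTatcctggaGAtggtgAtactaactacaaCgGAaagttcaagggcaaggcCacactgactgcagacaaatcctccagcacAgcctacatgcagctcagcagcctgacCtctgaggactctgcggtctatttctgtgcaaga
Ighv1-63: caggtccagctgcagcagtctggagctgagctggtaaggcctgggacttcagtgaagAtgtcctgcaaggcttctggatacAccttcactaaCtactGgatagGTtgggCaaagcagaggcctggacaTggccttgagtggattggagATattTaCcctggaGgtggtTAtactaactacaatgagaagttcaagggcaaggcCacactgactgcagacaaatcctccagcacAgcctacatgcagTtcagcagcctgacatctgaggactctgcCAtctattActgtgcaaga
Ighv1-26: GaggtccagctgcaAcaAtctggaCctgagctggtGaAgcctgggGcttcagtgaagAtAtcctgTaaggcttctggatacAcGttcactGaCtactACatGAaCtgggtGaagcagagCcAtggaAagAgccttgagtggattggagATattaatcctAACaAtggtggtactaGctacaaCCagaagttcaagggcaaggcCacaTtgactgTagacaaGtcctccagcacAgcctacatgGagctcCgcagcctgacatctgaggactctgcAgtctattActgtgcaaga
Ighv4-1: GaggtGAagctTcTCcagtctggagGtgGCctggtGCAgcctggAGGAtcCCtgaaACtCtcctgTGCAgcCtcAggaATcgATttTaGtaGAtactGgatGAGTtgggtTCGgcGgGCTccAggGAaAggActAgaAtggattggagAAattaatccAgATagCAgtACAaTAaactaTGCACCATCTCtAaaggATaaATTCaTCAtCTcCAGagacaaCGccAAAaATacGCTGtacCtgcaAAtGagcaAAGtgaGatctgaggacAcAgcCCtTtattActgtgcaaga
The 3 other Ighv1 members were 92.9% (Ighv1-63), 88.8% (Ighv1-80) and 85.7% (Ighv1-26) identical to Ighv1-54, with 21, 33 and 42 bases that differed. Ighv4-1, of another family, shared 60.2% of positions. A matched sequence was found for 181 of the 183 segments, including all 120 V segments not annotated as pseudogenes. Among these 120, 14 had another segment at least 98% identical and 61 had one at least 95% identical over their transcripts. How reads that fit more than 1 segment were counted was not stated, so a count on such a segment may hold reads of its near copy, and somatic changes of the expressed chains were not measured.

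The libraries held between 46764569 and 66797879 counts. Levels are given in CPM, the counts of a gene scaled to a common library size with TMM factors. Between 1458 and 68372 of these fell on Ighv segments, so precision was lowest in the 2-week controls and highest in the 6-week irradiated libraries. None of 8 lung identity genes was at 0 throughout a group, and their summed level was 20960 to 45940 CPM. The lowest was that of 75 Gy library 3134 of 2 weeks, which also had the highest summed T cell and early B lymphoid levels of its group, 197.9 and 74.6 CPM against at most 109.9 and 33.3 CPM. The part of these cells in its segment use was not tested. Among the 6-week controls, library 3135 stood apart, with a summed mature B cell level of 805 CPM against 461 and 469 CPM in the other two. Without it the median log2 fold change of the segments tested at 6 weeks was 1.98 after 65 Gy and 2.51 after 75 Gy, and calls of named genes at 6 weeks that were lost without it are given as such.

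Summed Ighv expression was raised in every 6-week irradiated library, and counts were concentrated on a few segments that differed between libraries. In the 2-week controls the 183 segments summed to 40.3, 31.2 and 37.7 CPM (libraries 3126, 3127 and 3128), and in the 6-week controls to 117, 51.8 and 51.3 CPM (3135, 3136 and 3137). At 6 weeks the sums were 834 and 311 CPM after 65 Gy (3138 and 3140) and 530, 362 and 1248 CPM after 75 Gy (3141, 3142 and 3143). The lowest irradiated library of 6 weeks lay above every control of either time. At 2 weeks the sums were 52.4, 97.4 and 46.1 CPM after 65 Gy (3129, 3130 and 3131) and 35.3, 93.2 and 37.6 CPM after 75 Gy (3132, 3133 and 3134). The 3 libraries of 65 Gy lay above the 3 controls of 2 weeks, while those of 75 Gy overlapped with them. Being sums over the members, these values are described without a test.

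Evenness was expressed as the effective number of segments, the number of equally used segments that would give the same chance of 2 counts falling on 1 segment. It was 41.6, 47.4 and 47.6 in the 2-week controls and 6.47, 51.0 and 46.8 in the 6-week controls, where the low value was that of library 3135. The other 5 controls thus used more than 40 effective segments. At 2 weeks it was 36.3, 14.7 and 44.4 after 65 Gy and 42.9, 12.5 and 18.7 after 75 Gy, so that 4 of the 6 libraries, 3129, 3130, 3133 and 3134, lay below every control except 3135, the first of them by a smaller margin. At 6 weeks it was 5.11 and 8.48 after 65 Gy and 6.72, 16.6 and 5.23 after 75 Gy. All 5 lay below the 5 even controls, and 3135 lay within their range. Shares and effective numbers here are over counts not divided by length, and division by the annotated length left the group means at 43.0 for the 2-week controls, 6.24 for 65 Gy and 9.59 for 75 Gy at 6 weeks.

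The number of segments that could be seen in an equal sample of counts moved the same way but by less. When each library was reduced to 1458 Ighv counts, the total of the smallest library, 96.0 to 104 segments were expected in the 2-week controls and 98.6 to 100.3 in the 6-week controls. The 6-week irradiated libraries were expected to show 70.6 and 82.9 segments (65 Gy) and 73.5, 81.4 and 69.2 segments (75 Gy). In the full counts these same libraries had counts on 113 to 123 of the 183 segments, against 96 to 114 in the controls. A narrow use of segments therefore went together with counts on most of the segments that were seen in the controls.

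The rise was not limited to the leading segments of a library. Without its 5 leading segments, the Ighv sum of a control was between 24.2 and 59.4 CPM, and that of a 6-week irradiated library was between 145 and 431 CPM. The median level of the 93 segments tested was 0.367 to 0.503 CPM in the 6-week controls, 0.768 and 1.37 CPM after 65 Gy, and 1.08 to 2.1 CPM after 75 Gy. Between 43 and 60 segments reached 1 CPM in these irradiated libraries, against 13 to 27 in the controls of the same time.

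**Figure D1:**
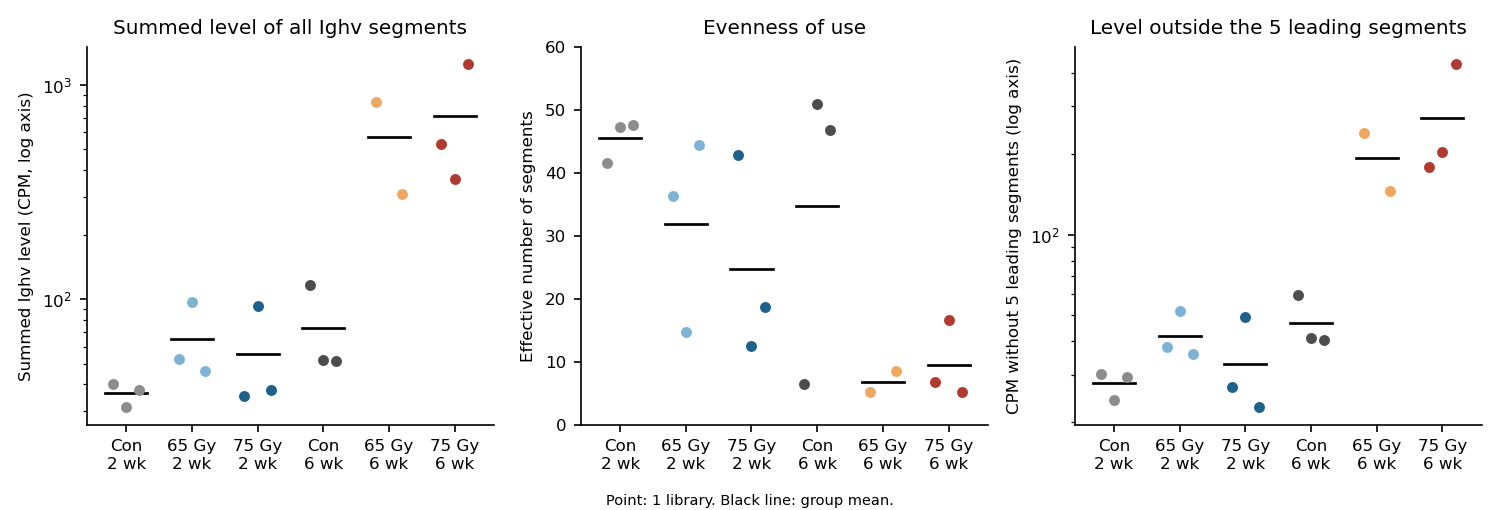
Summed Ighv level in CPM (left, log axis), effective number of segments (middle) and Ighv level without the 5 leading segments of each library (right, log axis), by group. Points are libraries and black lines are group means (n = 3, n = 2 for 65 Gy at 6 weeks). All 5 irradiated libraries of 6 weeks sit above every control on the left, and 1 control of 6 weeks (3135, effective number 6.47) sits among them in the middle.

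Ighv1-26 led 6 of the 17 libraries, though not all of the even ones. It held the largest share of Ighv counts in the 3 controls of 2 weeks, in 6-week controls 3136 and 3137 and in 65 Gy library 3129 of 2 weeks. Its share there was 5.41% (95% Wilson interval 4.64 to 6.29) to 8.29% (7.39 to 9.29), so that no segment took 10% of the counts. Intervals given here cover counting error only. Of the 183 segments, 9 led at least 1 library and 16 held 5% or more of the counts in at least 1 library.

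In libraries of low evenness 1 or 2 other segments led. Ighv1-54 held 38.3% (37.2 to 39.5) of the counts of control 3135, 38.2% (37.7 to 38.6) of 65 Gy library 3138 and 29.1% (28.6 to 29.6) of 75 Gy library 3141. It came second in the other two 75 Gy libraries of 6 weeks, with 13.0% (12.6 to 13.5) in 3142 and 14.6% (14.3 to 14.8) in 3143. Thus Ighv1-54 was first or second in 4 of the 5 irradiated libraries of 6 weeks and in 1 of 6 controls.

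Ighv1-80 led library 3143 with 40.3% (39.9 to 40.7) and came second in 3138 with 20.0% (19.6 to 20.3). Ighv1-63 led library 3142 with 16.1% (15.6 to 16.6), and held 23.0% (22.5 to 23.4) in 3141 and 7.89% (7.66 to 8.13) in 3138. Ighv4-1 led library 3140 of 65 Gy with 31.5% (30.8 to 32.2), where Ighv1-54 was not among the first 3. The 2 libraries of 65 Gy at 6 weeks therefore shared no segment among those at 5% or more of their counts.

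Single segments also led some 2-week irradiated libraries. Ighv1-50 held 20.8% (19.8 to 21.8) of library 3130, Ighv6-3 held 22.7% (21.7 to 23.7) of 3133 and Ighv4-1 held 17.2% (15.6 to 18.8) of 3134. Ighv1-5 was second in 3133 with 13.0% (12.1 to 13.8) and Ighv1-80 was second in 3134 with 10.6% (9.38 to 12.0). Libraries 3131 and 3132 were led by Ighv1-12 and Ighv14-1 at only 4.83% (4.07 to 5.73) and 6.46% (5.46 to 7.61). The leading segment thus differed between all 3 libraries of each irradiated group at 2 weeks.

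**Figure D2:**
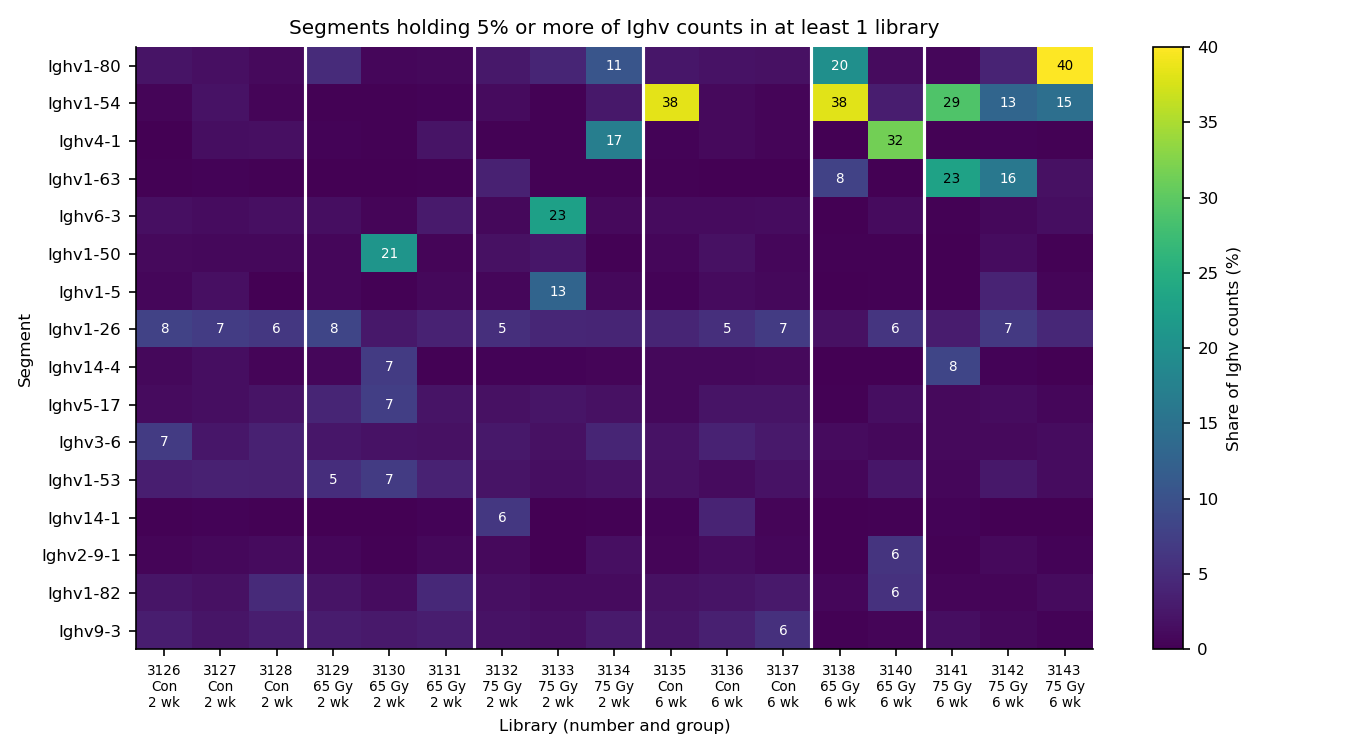
Share of Ighv counts (%, colour) of the 16 segments that held 5% or more in at least 1 library, with 1 column per library and white lines between groups. Shares of 5% or more are printed in the cells. Ighv1-26 holds 5.41% to 7.82% in the controls other than 3135, and single segments hold up to 40.3% (Ighv1-80 in 3143) in the irradiated libraries of 6 weeks.

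How far libraries used the same segments was described by the shared use, the sum over segments of the smaller of 2 shares. The 10 pairs among the 5 even controls shared 73.2% to 78.9%, whatever their time. Pairs with control 3135 brought the lowest value among controls down to 57.0%. The 10 pairs of 6-week irradiated libraries shared 27.6% to 57.3%, and the lowest was the pair of 65 Gy libraries. Irradiated libraries of 6 weeks were thus less like each other than the even controls were, and the 3 pairs within 75 Gy at 6 weeks shared 39.6% to 57.3%. This was not limited to 6 weeks, as the 15 pairs of irradiated libraries of 2 weeks shared 41.1% to 69.6%. Control 3135 shared 65.9% with irradiated library 3138 and 61.0% with 3141, and at most 59.5% with another control. With 3140, 3142 and 3143 it shared 40.7%, 56.3% and 48.7%.

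The effect of irradiation on single segments at 2 weeks was tested next. Each dose was compared with the controls of its time by edgeR's quasi-likelihood test over 22052 genes, with Benjamini-Hochberg adjustment, and a segment was called when its adjusted p did not exceed 0.05 and its level changed by 1 or more on the log2 scale. Of the 183 segments, 93 had enough counts to be tested, 87 of them V segments and 6 pseudogenes. The remaining 90 comprised 41 with no count in any library and 49 with at most 90 counts in a library. A segment high in 1 group passed this filter more easily than one low in all, so counts over the 93 do not speak for the 183.

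After 65 Gy at 2 weeks 1 segment rose and none fell, which was 1.08% of those tested against 4.35% of all genes tested (3.47% higher and 0.88% lower). The segment was Ighv5-17, which had 2.16, 7.18 and 0.944 CPM against 0.487, 0.471 and 0.801 CPM in the controls. The 3 irradiated libraries lay above the 3 controls, by a small margin for library 3131. Its log2 fold change was 2.54 (SE 0.66, edgeR adjusted p = 0.0223). The call was lost when control 3126 or 3127 or 65 Gy library 3130 was left out, with a value of 1.40 without 3130. Without 3129 or 3141 2 segments were called in this comparison, and without 3131 or 3134 3 were.

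After 75 Gy at 2 weeks no segment was called by edgeR's quasi-likelihood test, against 7.74% of all genes (5.67% higher and 2.07% lower). An unadjusted p under 0.05 was found for 3 segments (3.23%, against 35% of all genes), edgeR's exact test called 2 (Ighv6-3 and Ighv1-5) and DESeq2 called these and Ighv1-20. Ighv6-3 had 0.315, 21.1 and 0.369 CPM after 75 Gy against 0.649, 0.428 and 0.591 CPM in the controls, and Ighv1-5 had 0.245, 12.1 and 0.299 CPM against 0.284, 0.535 and 0.0572 CPM. Both were high in library 3133 alone, and in the other two Ighv6-3 lay below the controls and Ighv1-5 within them. Without 3133 their log2 fold changes were -0.70 and -0.08 (edgeR adjusted p = 0.684 and 0.970). The number of segments called was 2 without 3132, 3 without 3134 and 1 without 3133, 3140 or 3141.

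Ighv1-50 behaved alike after 65 Gy, with 0.355, 20.2 and 0.267 CPM against 0.426, 0.278 and 0.343 CPM in the controls. Its level was high in library 3130 alone, and its log2 fold change of 4.31 (SE 1.44) did not pass (edgeR adjusted p = 0.0687). Ighv9-1 was likewise high in 3130 alone, with 4.71 CPM against at most 0.242 CPM in the other 2-week libraries (log2 3.45, SE 1.10, edgeR adjusted p = 0.0569). Every irradiated library lay above every control in 11 of the 93 segments tested after 65 Gy and in 3 after 75 Gy. Over all genes tested this held for 15.9% and 15.5%. The median log2 fold change of the segments tested was 0.27 after 65 Gy and -0.02 after 75 Gy, against -0.01 and 0.00 over all genes. With Ighv7-4, which had no count in the 2-week controls, set to the bound that 3 counts over the controls allow, the median after 75 Gy was -0.04.

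At 6 weeks irradiation was followed by higher levels of many segments at either dose. After 65 Gy 30 of the 93 tested were called higher and none lower, which was 32.3% against 5.28% of all genes tested (4.34% higher and 0.943% lower). After 75 Gy 52 were called higher and 1 lower, 57% in all against 10.4% of all genes tested (7.28% higher and 3.13% lower). The count after 65 Gy was 13, 11 and 11 when control 3136, control 3137 or library 3138 was left out, and the count after 75 Gy was 35, 34 and 32 when control 3136, control 3137 or library 3143 was left out. Without control 3135, which stood apart, the counts were 20 and 45. In that fit 3.61% and 6.6% of all genes were called higher, and 0.724% and 2.79% lower. Shares over all genes in the other fits that left out a library are not given here. The median log2 fold change of the segments tested was 1.78 after 65 Gy and 2.26 after 75 Gy, against 0.01 and 0.04 over all genes. Both doses were compared with the same controls.

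Every irradiated library lay above every control of 6 weeks in 42 of the 93 segments after 65 Gy and in 50 after 75 Gy. Over all genes tested this held for 28.2% and 29.4%. Of the calls, 21 after 75 Gy and 2 after 65 Gy held in each of the 17 fits that left out 1 library. The 2 were Ighv1-71 and Ighv1-62-2, which have identical transcripts, so that they do not count as separate results. The 21 after 75 Gy included Ighv1-26, Ighv1-53, Ighv1-55, Ighv1-63, Ighv1-78 and Ighv1-81.

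Some segments were higher in each irradiated library than in any control. Ighv1-26, which led 5 of the 6 controls, had 4.85, 2.80 and 3.58 CPM in the 6-week controls, 15.5 and 19.0 CPM after 65 Gy, and 15.9, 24.1 and 54.9 CPM after 75 Gy. The 5 irradiated values were all at least 3 times the highest control. Its log2 fold change was 2.20 (SE 0.48, edgeR adjusted p = 0.00759) after 65 Gy and 3.08 (SE 0.46, edgeR adjusted p = 0.000206) after 75 Gy, and the first was lost at the threshold when 3140 was left out (2.06, edgeR adjusted p = 0.053). Its share of the Ighv counts in the same libraries, 1.86% to 6.67%, did not rise with its level.

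Ighv1-55 and Ighv1-53 were also higher in each irradiated library, and both were highest in 3143. Ighv1-55 had 1.38, 1.41 and 0.995 CPM in the controls, 6.32 and 6.37 CPM after 65 Gy, and 7.54, 4.44 and 23.9 CPM after 75 Gy. Ighv1-53 had 2.12, 0.624 and 1.01 CPM in the controls, 5.44 and 7.63 CPM after 65 Gy, and 3.81, 9.32 and 16.3 CPM after 75 Gy. The groups did not overlap for either segment. Their log2 fold changes were 2.33 and 2.37 after 65 Gy and 3.24 and 2.96 after 75 Gy, all called. Of the 17 fits that left out 1 library, the call after 65 Gy was lost in 1 for Ighv1-55 and in 4 for Ighv1-53. Ighv1-69 rose likewise, from 0.695 to 1.41 CPM in the controls to 4.26 to 8.39 CPM in the 5 irradiated libraries, with log2 fold changes of 2.73 (SE 0.51) and 2.42 (SE 0.48). Its call after 65 Gy was lost in 1 such fit. Ighv3-6, second in control 3126, had 2.37, 2.02 and 1.40 CPM in the controls, 9.85 and 2.88 CPM after 65 Gy, and 5.13, 3.79 and 17.6 CPM after 75 Gy, and was called after 75 Gy alone (log2 2.19, SE 0.60, edgeR adjusted p = 0.011).

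A second kind of rise rested on 1 or a few libraries. Ighv1-80 had 2.76, 0.998 and 0.908 CPM in the controls, 166 and 3.45 CPM after 65 Gy, and 3.56, 14.4 and 503 CPM after 75 Gy. Libraries 3138 and 3143 stood far above the others, and the groups nonetheless did not overlap. The log2 fold changes were 5.76 (SE 1.69, edgeR adjusted p = 0.0345) and 6.79 (SE 1.71, edgeR adjusted p = 0.00674). They were 1.15 without 3138 and 2.53 without 3143, and neither was then called. Without control 3135 the value after 65 Gy was 6.47 and no longer passed (edgeR adjusted p = 0.0778).

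Ighv4-1 had 0.486, 0.553 and 0.314 CPM in the controls and 0.660 and 97.9 CPM after 65 Gy, so that library 3140 alone was high. The fold change was called (log2 6.76, SE 1.66, edgeR adjusted p = 0.0143) and was 0.56 without 3140. It was lost without control 3135 (6.82, edgeR adjusted p = 0.0551). After 75 Gy its levels of 1.13, 1.22 and 2.1 CPM were not called different from the controls. The pseudogene Ighv4-2, 96.4% identical to Ighv4-1, was also called after 65 Gy, with 0.231 and 3.24 CPM against 0.0649, 0 and 0.0175 CPM, and its higher library was again 3140. Reads shared between this pair cannot be told apart.

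Ighv1-63 was near absent from the controls, with 0.341, 0.0713 and 0.0698 CPM, and had 65.8 and 0.188 CPM after 65 Gy and 122, 58.2 and 23.0 CPM after 75 Gy. Only library 3140 fell within the range of the controls. Its log2 fold change of 8.66 (SE 1.54, edgeR adjusted p = 0.000692) after 75 Gy was the largest of the segments called there and remained called without any single library. That after 65 Gy, 7.63 (SE 1.55, edgeR adjusted p = 0.00512), was 0.20 without 3138. With at most 0.341 CPM in the controls of 6 weeks and at most 1.28 CPM at 2 weeks, Ighv1-63 was a segment whose high levels were seen in irradiated libraries of 6 weeks alone, in 4 of 5.

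After 75 Gy 2 further segments were high in some libraries. Ighv3-1 had 0.656, 0.955 and 19.6 CPM against 0.454, 0.143 and 0.175 CPM in the controls, with library 3143 far above the rest (log2 4.75, SE 1.23, edgeR adjusted p = 0.00804, and 1.64 without 3143). Ighv14-2 had 16.1, 2.53 and 23.5 CPM against 0.957, 1.09 and 0.489 CPM (log2 4.05, SE 0.82, edgeR adjusted p = 0.00171), and 1.02 and 1.01 CPM after 65 Gy. Its levels after 75 Gy lay above all controls, and those after 65 Gy were within them.

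Ighv1-54, the segment with the highest mean share, was not called at either dose. It had 44.8, 0.499 and 0.279 CPM in the controls, 318 and 9.90 CPM after 65 Gy, and 154, 47.1 and 182 CPM after 75 Gy. Control 3135 lay above 1 of the 2 libraries of 65 Gy and just under the lowest of 75 Gy. The log2 fold changes were 3.43 (SE 1.39, edgeR adjusted p = 0.113) and 3.07 (SE 1.31, edgeR adjusted p = 0.0801). Without control 3135 they were 8.71 and 8.35 (edgeR adjusted p = 0.00239 and 0.000914), and without 3138 that of 65 Gy was -0.61. In the 9 libraries of 2 weeks Ighv1-54 had at most 0.967 CPM, and the controls of 6 weeks did not differ from those of 2 weeks by the test (log2 5.51, SE 1.76, edgeR adjusted p = 0.144).

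A pair of identical segments rose after 65 Gy. The transcripts of Ighv1-71 and Ighv1-62-2 had no differing base, and their counts were close, with 279 and 283 in 3138 and 90 and 81 in 3140. Their reads cannot be told apart. Ighv1-71 had 0.227, 0.161 and 0.209 CPM in the controls, 4.60 and 1.54 CPM after 65 Gy, and 0.0656, 0.106 and 0.329 CPM after 75 Gy. The 2 libraries of 65 Gy lay above the other 15. The log2 fold change after 65 Gy was 3.93 (SE 0.57, edgeR adjusted p = 0.000497).

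One segment fell. Ighv15-2 had 0.130, 0.196 and 0.768 CPM in the controls and 0.0492, 0.0885 and 0.0183 CPM after 75 Gy, which were 8, 11 and 44 counts against 3, 5 and 1. The groups did not overlap at these low levels. The log2 fold change was -2.75 (SE 0.80, edgeR adjusted p = 0.0152), and the call was lost without control 3137 (-1.60) or library 3143 (-2.35).

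Among segments with a role known from other work, Ighv11-2 and Ighv12-3 are typical of B-1 cells, the innate-like B cells of body cavities. Ighv11-2 had 0.0891 to 0.616 CPM and Ighv12-3 0.0176 to 0.304 CPM over the 17 libraries. Neither was called in any of the 9 comparisons. The pseudogenes Ighv1-21 and Ighv1-33, whose nearest relative was Ighv1-26 (94.6% and 95.7% identical), were called higher at both doses, but without control 3135 only Ighv1-21 after 75 Gy was. Ighv1-33 had no count in the 3 controls of 6 weeks and 5 to 22 counts in the irradiated libraries, so that against 3 counts over the controls it was at least 15.8-fold higher after 65 Gy and at least 8.41-fold higher after 75 Gy. Segments that the count table annotates as pseudogenes together held 0.634% to 1.73% of Ighv counts in the irradiated libraries of 6 weeks and 1.81% to 2.86% in the controls of that time. They include Ighv7-3, which GENCODE lists as a V gene and which held 1.12% in 3143 and 1.79% in control 3136.

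**Figure D3:**
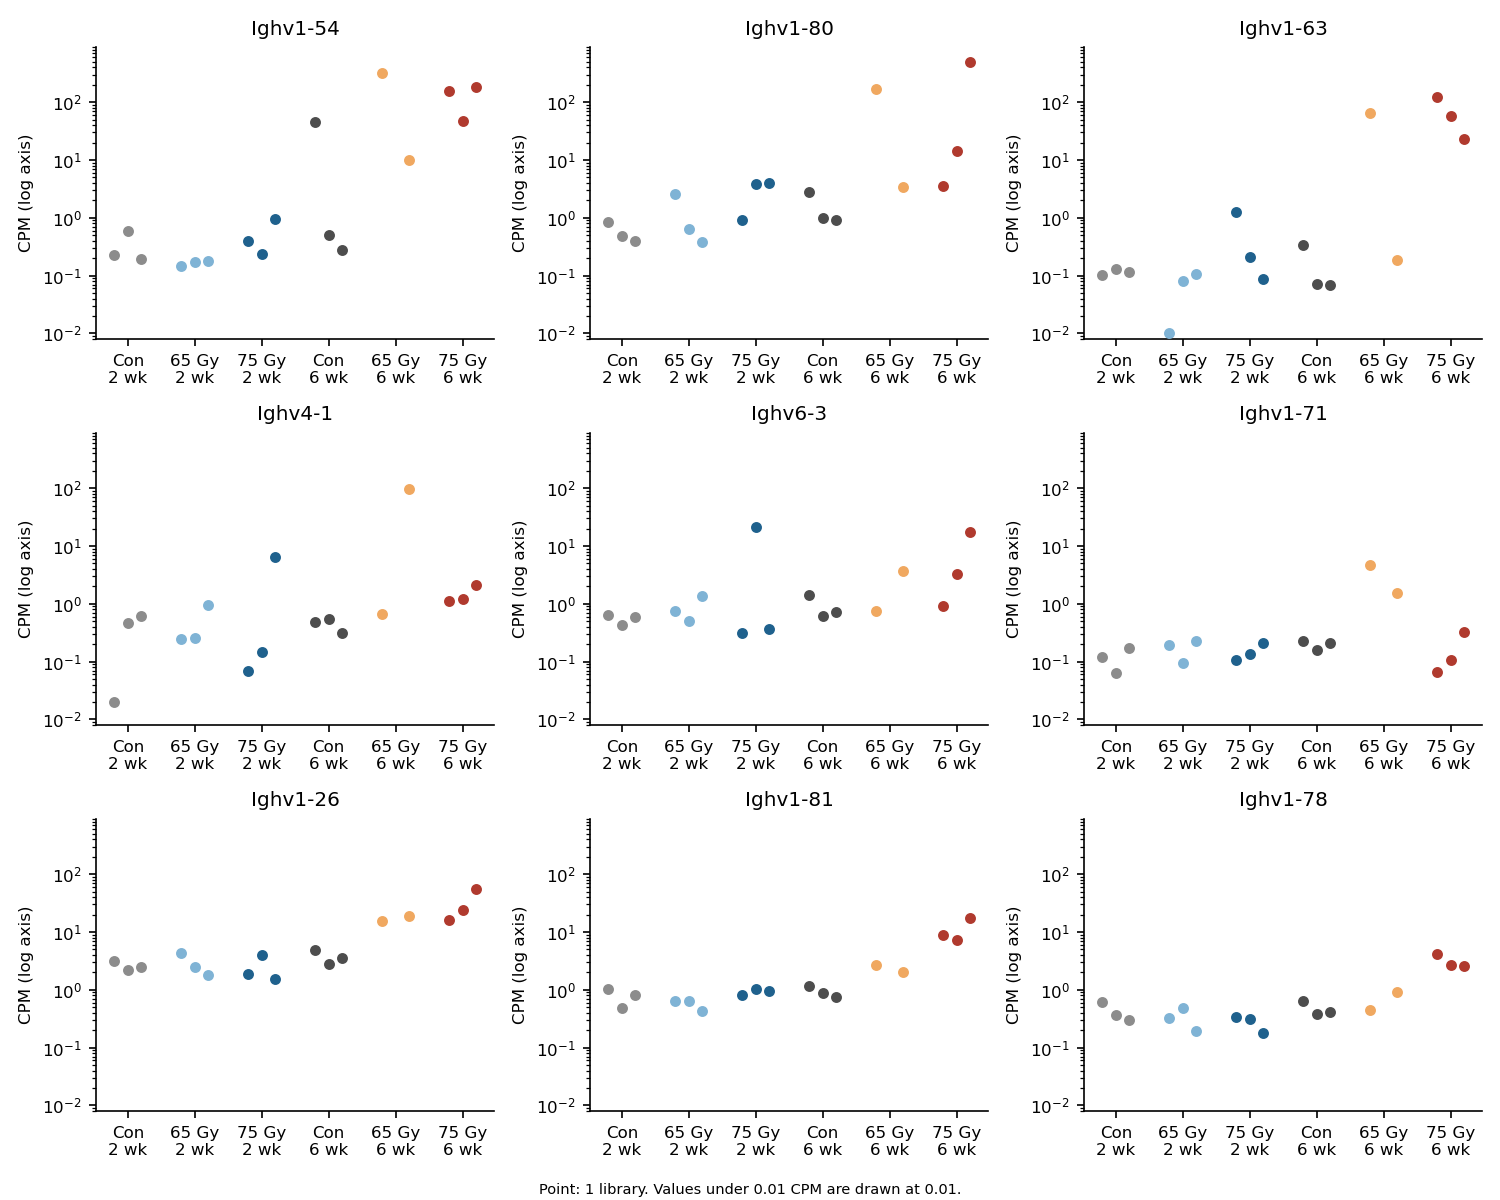
Level of 9 segments (CPM, log axis) by group, with 1 point per library. Ighv1-26, Ighv1-81 and Ighv1-78 have close values within groups, while Ighv1-54, Ighv1-80, Ighv4-1 and Ighv6-3 have single libraries far above the rest, such as Ighv4-1 with 97.9 CPM in 1 of 2 libraries of 65 Gy at 6 weeks.

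The doses were then compared directly. No segment was called between 75 Gy and 65 Gy at 2 weeks or at 6 weeks by edgeR's quasi-likelihood test, and neither was any of the 22052 genes (0% at each time). At 6 weeks 21 segments had an unadjusted p under 0.05 (22.6%, against 6.49% of all genes), and edgeR's exact test and DESeq2 each called 4, namely Ighv1-78 and Ighv1-81 as higher and Ighv1-71 and Ighv1-62-2 as lower after 75 Gy. At 2 weeks 19 segments had an unadjusted p under 0.05 (20.4%, against 7.12% of all genes), and neither tool called any. Without 3140 Ighv1-71 and Ighv1-62-2 were called at 6 weeks, and without 3143 Ighv1-71. At 2 weeks Ighv9-1 and Ighv2-3, with 2.12 CPM in 65 Gy library 3131 and at most 0.517 CPM in the other 2-week libraries, had the differences of -5.06 (SE 1.24) and -2.20 (SE 0.84), both with an edgeR adjusted p of 0.693.

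Ighv1-81 had 1.17, 0.874 and 0.751 CPM in the controls of 6 weeks, 2.74 and 2.00 CPM after 65 Gy, and 9.04, 7.18 and 17.2 CPM after 75 Gy. The 3 groups did not overlap. It was called after 65 Gy (log2 1.34, SE 0.35, edgeR adjusted p = 0.0206) and after 75 Gy (log2 3.58, SE 0.34, edgeR adjusted p = 6.7e-06), and the difference between the doses was 2.23 (SE 0.37, edgeR adjusted p = 0.123). Its call after 65 Gy was lost in 3 of the 17 fits that left out 1 library. Ighv1-78 had 0.632, 0.374 and 0.419 CPM in the controls, 0.445 and 0.922 CPM after 65 Gy, and 4.23, 2.73 and 2.56 CPM after 75 Gy. It was called after 75 Gy (log2 2.73, SE 0.39, edgeR adjusted p = 0.000143), and the difference between the doses was 2.21 (SE 0.44, edgeR adjusted p = 0.514). For Ighv1-71 the difference was -4.20 (SE 0.58, edgeR adjusted p = 0.0656). A difference between the doses was therefore not shown for any segment, and with 2 libraries of 65 Gy it was not shown to be absent.

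The effect of a dose was compared between the times, as the fold change at 6 weeks against that at 2 weeks. For 75 Gy 2 segments were called, 2.15% of those tested against 0.254% of all genes (0.213% higher and 0.0408% lower). They were Ighv1-81, whose effect was larger at 6 weeks by 3.34 on the log2 scale (SE 0.47, edgeR adjusted p = 0.00841), and Ighv1-78, larger by 3.36 (SE 0.57, edgeR adjusted p = 0.0200). At 2 weeks Ighv1-81 had 1.03, 0.492 and 0.820 CPM in the controls and 0.805, 1.02 and 0.95 CPM after 75 Gy, and Ighv1-78 had 0.609, 0.364 and 0.305 CPM against 0.333, 0.310 and 0.176 CPM. Both overlapped with the controls at 2 weeks and lay apart from them at 6 weeks.

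The call of Ighv1-78 was lost without control 3126 (3.01) or 3136 (3.22), and the number of segments called was 1 without 3126 or 3136, 5 without 3141 and 4 without 3133. Ighv1-26, with a difference of 3.13 (SE 0.64), did not pass (edgeR adjusted p = 0.0591). For 65 Gy no segment was called by edgeR's quasi-likelihood test, against 0.0136% of all genes. There 23 segments had an unadjusted p under 0.05 (24.7%, against 8.65% of all genes), DESeq2 called 2 (Ighv1-69 and Ighv1-63), and the fit without 3140 called 1 (Ighv2-6).

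The controls of 6 weeks did not differ from those of 2 weeks in any segment by edgeR's quasi-likelihood test, against 0.576% of all genes (0.24% higher and 0.336% lower). An unadjusted p under 0.05 was found for 6 segments (6.45%, against 15.5% of all genes), edgeR's exact test called Ighv1-54, and DESeq2 called Ighv1-54, Ighv5-12 and Ighv9-3. The median log2 fold change of the segments tested was 0.63 against 0.01 over all genes, and 81 of the 93 had a positive sign.

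Most segments called at 6 weeks belonged to family Ighv1. After 65 Gy most lay in the part of the locus farther from the D segments. Family Ighv1 has 92 of the 183 members, of which 48 were tested, and 25 of these were called higher after 65 Gy and 35 after 75 Gy at 6 weeks. Outside it, 5 were called higher after 65 Gy, 2 in Ighv2, both members of Ighv4 and 1 in Ighv14. After 75 Gy the other 17 called higher lay in 9 families, among them 4 in Ighv5 and 3 each in Ighv3 and Ighv14. Ighv1 held 57.0% to 61.7% of Ighv counts in the 2-week controls and 52.9%, 56.8% and 74.5% in the 6-week controls, the highest in 3135. It held 91.8% and 44.9% after 65 Gy and 75.7%, 81.4% and 84.1% after 75 Gy at 6 weeks, so that library 3140, led by Ighv4-1, was the only one of the 5 under the controls.

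By position, the 46 segments farthest from the D segments held 28.1% to 32.4% of the counts in the 2-week controls and 49.7% to 74.3% after 75 Gy at 6 weeks. After 65 Gy they held 78.4% (3138) and 25.6% (3140), and in the 6-week controls 29.1% to 57.8%. Ighv1-54, Ighv1-63 and Ighv1-80 all lie among these 46, at 1620.7, 1922.7 and 2339.4 kb from the segment nearest D. Of the 27 tested among them, 21 were called after 75 Gy and 14 after 65 Gy, and of the 25 tested among the 46 nearest D, 8 and 5. Between these, the 46 segments at 534.3 to 1084.4 kb had 23 tested, with 14 called after 75 Gy and 1 after 65 Gy. The 45 at 1092.9 to 1592.8 kb had 18 tested, with 10 called at each dose. The segments at the ends of the locus added next to nothing, with no count on Ighv1-86, the farthest, and at most 0.0713 CPM on the pseudogene Ighv5-1, the nearest.

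**Figure D4:**
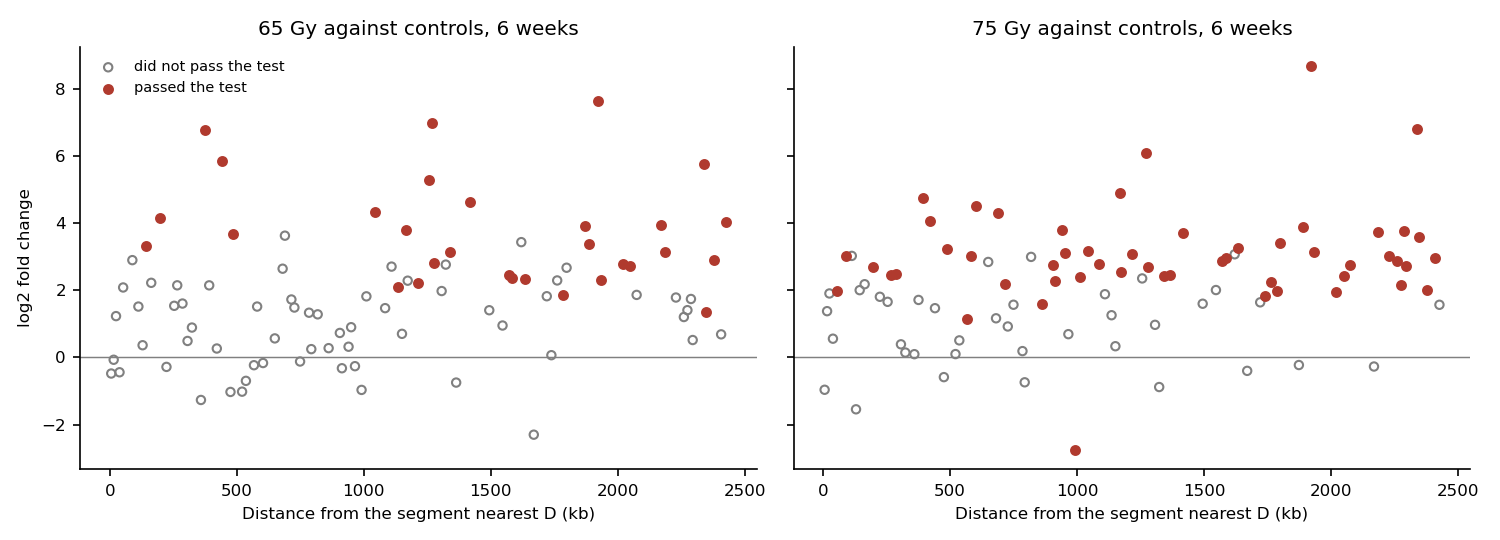
Log2 fold change of the 93 segments tested against their distance (kb) from the segment nearest the D segments, for 65 Gy (left) and 75 Gy (right) against controls at 6 weeks. Filled points passed the test (30 and 53). They occur along the locus, but on the left only 1 of the 23 tested between 534.3 and 1084.4 kb is filled. The largest rise at either dose is that of Ighv1-63 at 1922.7 kb, and the only filled point under 0 is Ighv15-2 on the right. Ighv1-33, with no control counts, is drawn at its fitted value.

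Most heavy-chain constant genes, which give the class of the antibody, were called higher at 6 weeks as well. Of 8 on the list 7 were tested, and at 6 weeks 5 were called higher and 1 lower after 65 Gy and 6 higher after 75 Gy, against 4.34% and 7.28% of all genes called higher. Without control 3135 4 were called higher after 65 Gy, with Ighg3 lost, and 6 after 75 Gy, against 3.61% and 6.6% of all genes. Ighg1, the constant gene of IgG1, had 0.714, 0.143 and 0.838 CPM in the controls, 23.3 and 11.4 CPM after 65 Gy, and 57.5, 63.5 and 127 CPM after 75 Gy. The log2 fold changes were 4.93 (SE 0.64, edgeR adjusted p = 0.000221) and 7.18 (SE 0.66, edgeR adjusted p = 5.4e-06). Igha, of IgA, had 52.1, 103 and 76.5 CPM in the controls and between 781 and 1930 CPM in the irradiated libraries, and was called at either dose (log2 3.74, SE 0.61, and 3.92, SE 0.59).

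Ighm, of IgM, had 730, 248 and 253 CPM in the controls, 3231 and 249 CPM after 65 Gy, and 1878, 816 and 4369 CPM after 75 Gy. It was called after 75 Gy (log2 2.52, SE 0.72, edgeR adjusted p = 0.0138) and not after 65 Gy (log2 2.08, SE 0.76, edgeR adjusted p = 0.079), where library 3140 was at the level of the controls. Library 3140 was also the one led by Ighv4-1. Ighd, of the IgD that resting B cells carry, was the constant gene called lower after 65 Gy (log2 -1.01, SE 0.25, edgeR adjusted p = 0.0159), with 27.6 and 36.5 CPM against 89.4, 51.4 and 52.0 CPM. Without control 3135, its highest control, Ighd was at -0.69 (edgeR adjusted p = 0.0605) and not called. At 2 weeks, when 1 Ighv segment was called after 65 Gy and none after 75 Gy, the constant genes called higher were Ighg1 after 65 Gy and Ighg1, Ighg2b, Ighg2c and Igha after 75 Gy, while Ighd was called lower after 75 Gy (-1.28).

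**Figure D5:**
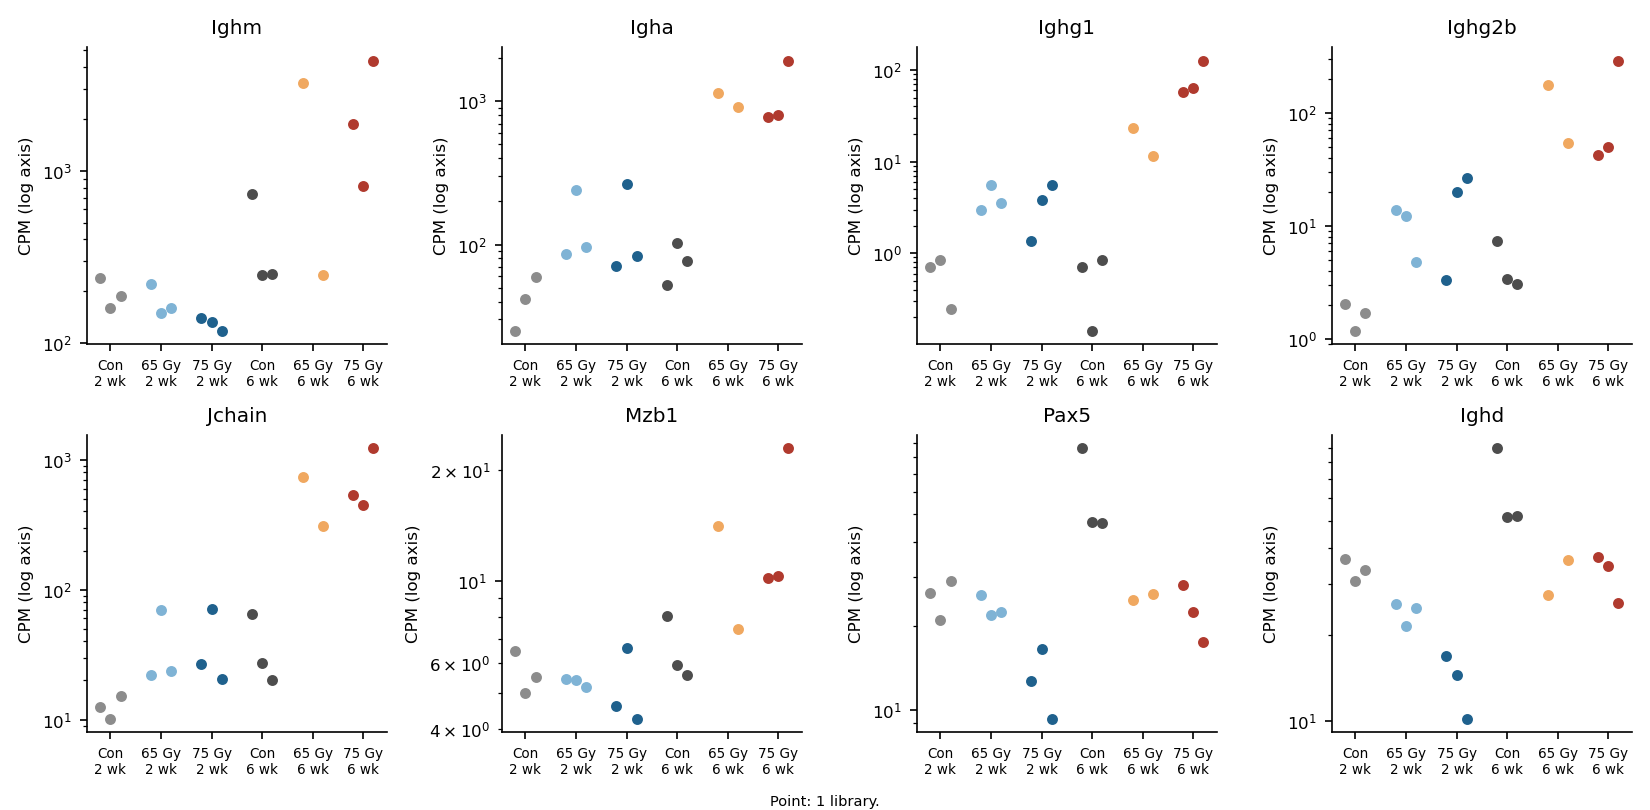
Levels (CPM, log axis) of 4 constant genes, the plasma cell genes Jchain and Mzb1, the B cell gene Pax5 and Ighd, by group, with 1 point per library. Ighg1 and Igha in all 5 irradiated libraries of 6 weeks lie above all controls, while Pax5 lies below the 6-week controls (46.6 CPM or more) in each of them.

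Markers of antibody-secreting cells moved with the segments in part. Of 13 plasma cell genes, 1 was called higher after 65 Gy and 4 after 75 Gy at 6 weeks, 1 and 6 without control 3135, and none was at 0. Over all genes 4.34% and 7.28% were called higher, and 3.61% and 6.6% without control 3135. The count after 65 Gy was near this background. Their summed level was 766 to 852 CPM in the controls, 1207 and 1732 CPM after 65 Gy, and 1283 to 2215 CPM after 75 Gy. Most of this rise lay in Jchain alone. Jchain, which joins IgA and IgM into polymers, had 64.7, 27.1 and 20.0 CPM in the controls, 733 and 309 CPM after 65 Gy, and 532, 446 and 1221 CPM after 75 Gy (log2 3.80, SE 0.68, and 4.30, SE 0.66, both called). The other 3 called after 75 Gy were Mzb1, Derl3 and Eaf2, with log2 fold changes of 1.15, 1.11 and 1.01. At 2 weeks none of the 13 was called at either dose, against 3.47% and 5.67% of all genes called higher. Their part in the rise of the segments was not tested.

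Mature B cell genes gave another picture. Of 14 tested none was called higher at 6 weeks and 2 were called lower at each dose, with Pax5 among them both times, against 0.943% and 3.13% of all genes. Without control 3135 none was called lower after 65 Gy, and after 75 Gy 1 was called lower and 1 higher. Over all genes 0.724% and 2.79% were then called lower, and 3.61% and 6.6% higher. Pax5, a transcription factor of B cell identity, had 86.1, 47.1 and 46.6 CPM in the controls, 24.8 and 26.1 CPM after 65 Gy, and 28.0, 22.4 and 17.5 CPM after 75 Gy. The groups did not overlap, and the log2 fold changes were -1.24 (SE 0.28, edgeR adjusted p = 0.00993) and -1.41 (SE 0.25, edgeR adjusted p = 0.00063). Without control 3135 they were -0.88, which is under the limit, and -1.05, which was still called. The summed level of the list was 461 to 805 CPM in the controls, 336 and 340 CPM after 65 Gy, and 293 to 378 CPM after 75 Gy, with no member at 0. At 2 weeks none was called after 65 Gy, and 1 was called higher and 3 lower after 75 Gy. The summed level of these genes was lower in the irradiated libraries of 6 weeks than in the controls of that time. Of these, 3135 had 805 CPM and the other 2 had 461 and 469 CPM. In the 2-week controls it was 289 to 425 CPM, and the irradiated libraries of 6 weeks lay within that range. Between the controls, the median log2 fold change of the 14 genes from 2 to 6 weeks was 0.69. In that comparison 1 was called higher and none lower, against 0.24% and 0.336% of all genes. The part of B cell number in the Ighv levels was not tested.

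Some genes of the other, short lists were called at 6 weeks and some at 2 weeks. Over all genes tested at 6 weeks, 4.34% were called higher after 65 Gy and 7.28% after 75 Gy, and 0.943% and 3.13% lower. Without control 3135 these shares were 3.61% and 6.6% higher, and 0.724% and 2.79% lower. Of 8 germinal centre genes, 1 was called higher after 65 Gy (Gcsam) and 2 after 75 Gy (Gcsam and Mybl1). Without control 3135 these 2 were called at either dose. Of 5 early B lymphoid genes tested, Il7r alone was called higher after 75 Gy, while Rag1, of the recombinase that joins V segments, had at most 0.86 CPM. Without control 3135 Igll1 was called higher after 75 Gy as well. Of 8 T cell genes, Cd4 was called higher at either dose and Cd3g after 75 Gy, and without control 3135 Cd3g after 65 Gy too. Among 6 B-1 cell genes, Cd5 alone was called higher after 65 Gy (log2 1.05) and Igkv14-126 alone after 75 Gy (log2 3.04). Neither was called without control 3135, and Igkv14-126 had 18.6 CPM in 3143 and at most 1.2 CPM in the other 2. Which cells the Cd5 RNA came from was not tested. One lung identity gene, the endothelial Cldn5, was called lower after 75 Gy (-1.12). At 2 weeks 1 germinal centre gene was called higher at each dose, and 1 early B lymphoid gene after 75 Gy alone. Of the B-1 cell genes, 1 was called higher after 65 Gy and 2 after 75 Gy at 2 weeks. No T cell or lung identity gene was called at that time. Over all genes 3.47% and 5.67% were called higher at 2 weeks.

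Light-chain V segments, which complete the antigen-binding site, rose in the same libraries. Of 165 listed 94 were tested, and 29 were called higher after 65 Gy and 58 after 75 Gy at 6 weeks, with none lower, against 4.34% and 7.28% of all genes called higher. Without control 3135 23 and 47 were called higher, against 3.61% and 6.6% of all genes. At 2 weeks none was called at either dose, against 3.47% and 5.67% of all genes. Kappa V segments summed to 68.2 to 168 CPM in the controls of 6 weeks, 1412 and 462 CPM after 65 Gy, and 933, 698 and 2353 CPM after 75 Gy. Their effective number was 8.98 in control 3135 and 34.5 and 43.7 in the other two, and 3.43 to 8.65 in the irradiated libraries of 6 weeks. At 2 weeks it was lowest in libraries 3130 (8.47) and 3133 (13.3), which were also among those with the fewest effective heavy-chain segments.

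Some leading kappa segments came with the same leading heavy segment in 2 libraries. Igkv8-24 led libraries 3134 and 3140, with 4.49 and 146 CPM, and these were the 2 libraries led by Ighv4-1. Igkv4-91 led control 3135 and 75 Gy library 3141, with 51.2 and 315 CPM, and both were led by Ighv1-54. Library 3138, also led by Ighv1-54, had Igkv6-13 first with 314 CPM, and library 3143, led by Ighv1-80, had Igkv1-117 first with 1229 CPM. Heavy and light segments of the same cell cannot be paired in bulk RNA, and these matches were noticed in the values and are given as a description.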

How the data were processed

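RNA of 17 mouse lung samples was sequenced with a stranded mRNA kit. Per the methods of the study, the authors used Trimmomatic for trimming, HISAT2 for alignment (genome GRCm38.p6) and StringTie for assembly. The deposited values are raw whole-number counts per gene, and how they were derived from StringTie and how shared reads were counted is not given in the sources used here. Library totals lay between 46764569 and 66797879 counts.

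Counts were fitted in R 4.3.3 with edgeR 4.0.16 (TMM factors, filterByExpr with a minimum count of 10 and total of 15, quasi-likelihood test, 1 coefficient for each of 6 groups, all 17 libraries), in 9 comparisons with Benjamini-Hochberg adjustment over 22052 genes. The fit was checked on simulated counts. Effective numbers are inverses of the unbiased Simpson sum. Positions and sequences came from RefSeq and GENCODE of the same build, and identities from alignment.

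Named segments led a library, were among the 10 highest by mean share, the 5 largest rises or falls among those called or the 5 smallest p-values between doses or times, mark B-1 cells or end the locus; others were named after their values were seen. Members and gene lists were chosen with earlier results of these data known. Alternatives were other scalings and filters, edgeR's exact test, DESeq2 1.42.0, a robust fit, separate fits and fits leaving out libraries; those of other genes and lists without control 3135 were chosen after seeing the data. The light-chain V list is every symbol that begins with Igkv or Iglv. Some genes of the lists are not reported here.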

Additional observations from a re-analysis of the deposited data

Results flagged for a closer look

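The effect of 75 Gy differed between the times for 2 segments, by a test of the difference itself in edgeR's quasi-likelihood fit over 22052 genes. For Ighv1-81 the log2 fold change against controls was larger at 6 weeks than at 2 weeks by 3.34 (SE 0.47, adjusted p = 0.00841), and it was higher than in every control of its time in 3 of 3 libraries at 6 weeks. For Ighv1-78 the difference was 3.36 (SE 0.57, adjusted p = 0.0200), again with 3 of 3 libraries of 6 weeks above the controls. The call of Ighv1-78 was lost without control 3126 or 3136, while that of Ighv1-81 held whichever library was left out.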

How the results depend on the processing

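No paired analysis was possible because no library number occurs in more than 1 group. No segment named here turned its direction while called, under any alternative. RLE or upper-quartile factors, scaling without immunoglobulin genes and a robust fit left every count of called segments within 1.5 times. Requiring 10 counts in every library gave 15 calls after 65 Gy and 26 after 75 Gy at 6 weeks, of which 14 and 25 were among the 30 and 53. Fewer segments were tested under this filter. The cause of the lost calls and of the 1 gained at each dose was not tested. Without 3135 and 3143, chosen after seeing the data, 24 were called after 75 Gy at 6 weeks, 1 between the doses at 6 weeks (Ighv1-71) and 1 between the 75 Gy effects (Ighv1-81).

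For 65 Gy at 2 weeks edgeR's exact test and DESeq2 each called 5 and a fit of the 2 groups alone 3; for 75 Gy at 2 weeks these tools called 2 and 3. Between the doses at 6 weeks each tool called 4 and the fit without a filter 1 (Ighv1-71). Between the controls they called 1 and 3, and DESeq2 called 2 between the 65 Gy effects and 13 between the 75 Gy effects; the cause was not tested. The exact test gave no value for differences between effects. Shares of all genes called by these tools are not given here, so their counts are not set against a background.

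Leaving out 1 library gave 0 to 3 calls for 65 Gy and 0 to 3 for 75 Gy at 2 weeks, 11 to 33 and 32 to 56 at 6 weeks, 0 to 2 between the doses at 6 weeks, 0 to 1 for the 65 Gy effects and 1 to 5 for the 75 Gy effects. Where this left 1 library of 65 Gy, it was assumed to vary like the other groups. For the named segments, a call was lost in 51 values without a library and in 15 other values, and the side of the threshold was kept in 542 and 314. With Shannon entropy the mean effective number was 62.9, 47.9 and 42.0 at 2 weeks (Con, 65 Gy, 75 Gy) and 51.9, 18.1 and 21.1 at 6 weeks, since it weighs rare segments more, and control 3135 (26.1) lay within the irradiated range of 12.7 to 32.6. Depth limited segments under about 0.1 CPM, which rest on a handful of counts.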
